A study of Mus musculus with 8 samples.

Results

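Kcnip1, Kcnip3, Kcnmb1 and Itpr1 are 4 genes of potassium channel partners and of calcium release, and they are 4 of the 155 distinct features in the authors' deposited table of transcripts that differed after Paupar knockdown. They were chosen by gene name, with their values in this comparison already known, so the group levels and fold changes below describe them and test nothing. RNA sequencing was done on mouse neural stem cells grown from the subventricular zone, the germinal niche along the lateral ventricles, in medium with EGF and FGF-2 at 20 ng/mL each. The shPaupar group comprised 4 samples nucleofected with a short hairpin RNA against Paupar, a long non-coding RNA transcribed next to Pax6, and the control group comprised 4 samples under the same nucleofection protocol, with a construct that the labels do not name. The labels give no strain, age or sex, and nothing in them says that samples were separate cultures or animals, so any spread behind the authors' p-values may be technical.

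KChIPs (Kv channel-interacting proteins) are small EF-hand proteins of the neuronal calcium sensor family that bind the cytoplasmic N terminus of Kv4 channels, raise their surface expression and tune their inactivation, which sets the fast A-type potassium current of neurons. BK channels open with membrane depolarisation and with calcium at the inner face of the membrane, and their beta subunits change that calcium sensitivity. Inositol trisphosphate receptors are the calcium release channels of the endoplasmic reticulum and open when phospholipase C produces inositol trisphosphate. The proteins thus either sense cytoplasmic calcium, respond to it or supply it.

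The table gives 1 level per group on the authors' own scale, with no value per sample, so no standard deviation can be given and the depth is unknown. Every one of its 155 features has an adjusted p under 0.05 (100% called), so membership in the table carries that call already. Lower features make up 65.2% of the table and higher ones 34.8%, and the 4 genes split into 3 lower and 1 higher. An absolute log2 ratio of the group levels of at least 1 (a doubling or halving) was reached by 43.9% of the features, 23.2% lower and 20.6% higher, and by 2 of the 4 genes, Itpr1 (lower) and Kcnmb1 (higher). The 43.9% includes the 23 features listed at 0 in a group, whose ratio is infinite and passes any threshold. None of the 4 genes is among those. The median log2 level ratio was -0.50 over the 4 genes and -0.45 over the 132 features above 0 in both groups. Since these values chose the genes, nothing is read from the likeness of these shares and medians. Paupar itself, Pax6 and Trim28 had 0 rows, so the knockdown could not be checked, and of 25 markers of neural, glial, immune and vascular cells 1, the neuroblast gene Dcx, was a row, so the labelled cell type could not be checked from this table either.

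Sequences are shown first for windows next to starts of protein-coding transcripts, since Kcnmb1 starts inside Kcnip1. Sequence from the single transcript that the Itpr1 row covers is shown further below. The promoter windows, from 250 bases before to 50 bases after a start site, are from RefSeq on GRCm38.p6, and 3 of the 4 genes had entries, 7 windows in all. The ones printed are the window next to the start of the protein-coding Kcnip1 transcripts (chr11:33843637-33843936, minus strand), the window next to the start of 2 of the 3 protein-coding Kcnip3 transcripts (chr2:127521343-127521642, minus strand) and the only Kcnmb1 window (chr11:33962763-33963062, plus strand). The windows at the upstream ends of the Kcnip1 and Kcnip3 rows (chr11:33993144-33993443 and chr2:127522045-127522344) are not printed. Also not printed are a further Kcnip1 window (chr11:33680633-33680932) and the window at the start of the protein-coding transcript Kcnip3-202 (chr2:127482450-127482749). Capitals mark GTCA or its reverse complement TGAC, the core of the downstream regulatory element to which the Kcnip3 product, also named DREAM, is known to bind.
Kcnip1 promoter: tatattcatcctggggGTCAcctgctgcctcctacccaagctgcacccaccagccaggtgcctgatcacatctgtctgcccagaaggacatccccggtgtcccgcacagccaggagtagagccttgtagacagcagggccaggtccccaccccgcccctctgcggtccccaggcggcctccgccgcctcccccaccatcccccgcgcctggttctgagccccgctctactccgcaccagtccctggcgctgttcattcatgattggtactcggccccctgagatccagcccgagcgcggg
Kcnip3 promoter: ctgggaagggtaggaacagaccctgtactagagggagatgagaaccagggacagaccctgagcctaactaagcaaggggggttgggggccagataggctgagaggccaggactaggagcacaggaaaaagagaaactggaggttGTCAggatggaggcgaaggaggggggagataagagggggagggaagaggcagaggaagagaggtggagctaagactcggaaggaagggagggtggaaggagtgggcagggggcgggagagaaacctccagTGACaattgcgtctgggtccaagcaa
Kcnmb1 promoter: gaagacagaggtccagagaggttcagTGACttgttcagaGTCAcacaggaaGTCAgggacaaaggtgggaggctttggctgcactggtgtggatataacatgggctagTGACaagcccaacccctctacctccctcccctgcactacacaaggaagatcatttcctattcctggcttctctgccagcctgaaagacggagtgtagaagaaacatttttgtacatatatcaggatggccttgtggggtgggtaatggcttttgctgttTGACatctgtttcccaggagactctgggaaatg
Searched on both strands, the GTCA core had 1 match in the printed Kcnip1 window, 2 in the printed Kcnip3 window and 5 in the Kcnmb1 window. Among unprinted windows, the upstream Kcnip1 window had 2 and the upstream Kcnip3 window 1. The further Kcnip1 window and the Kcnip3-202 window had 0. A match is common at this length: 85.2% of all 32851 RefSeq promoter windows held at least 1, with a median of 2, so these matches describe the sequence and show no binding. The Kcnmb1 window was poor in CG dinucleotides, with 1 against a median of 7 over all windows, and 5.43% of windows had fewer. The printed Kcnip1 window held 16 CG dinucleotides and the printed Kcnip3 window 4. Unprinted windows differed: the upstream and further Kcnip1 windows held 7 and 4, and the upstream Kcnip3 and Kcnip3-202 windows 8 and 28. The motif GGGCGG (35.7% of all windows) was present in the printed Kcnip1 and Kcnip3 windows and CCAAT (37.4%) in that of Kcnip1, neither was found in that of Kcnmb1, and TATAAA (13.6%) was in none of the 7.

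Both KChIP genes were lower in shPaupar cells. Kcnip1 encodes KChIP1, a Kv4 partner best known from interneurons, and its row in the authors' deposited table (ENSMUSG00000053519, chromosome 11, 33629339 to 33993152) equals the whole gene. In the authors' deposited table its level was 820 in the control group and 545 in the shPaupar group. The control level was 1.50-fold the shPaupar level, a log2 level ratio of -0.59, and the authors' deposited table gives an adjusted p of 0.00690. Taking the authors' two-sided p-value as that of a Wald test (an assumption, since the test is not named), the deposited log2 fold change of -0.59 has a standard error of 0.138 and a 95% interval from -0.86 to -0.32. In bulk samples such as these, fewer cells that express a gene and less of its RNA per cell cannot be told apart.

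Kcnip3 encodes KChIP3, a protein with several described roles: as a Kv4 partner, as calsenilin (which binds presenilins) and as DREAM (a calcium-regulated repressor of transcription). Its row (ENSMUSG00000079056, chromosome 2, 127456498 to 127522094) also equals the whole gene. In the authors' deposited table its level was 4569 in the control group and 3427 in the shPaupar group, a 1.33-fold higher control level. The log2 level ratio was -0.41, with an adjusted p of 0.00308 in the authors' deposited table. Under the same assumption the standard error was 0.0914 and the 95% interval ran from -0.59 to -0.24, the narrowest of the 4 genes. Kcnip3 lies on the same chromosome as Paupar, 21.8 Mb from it, while the other genes lie on chromosomes 11 and 6.

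The deposited log2 fold change of Kcnip3 was 0.17 closer to 0 than that of Kcnip1, less than the width of either interval above, and the difference was not tested. By absolute deposited log2 fold change, Kcnip1 ranked 100 and Kcnip3 134 among the 155 features, both among the smaller changes that the table lists.

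The neuroblast gene Dcx and some astroglial genes were lower, as were the KChIP genes and 65.2% of all features. Of the 8 neural stem cell and astroglial markers on the list, 0 were rows. The one cell type marker of the 25 with a row, Dcx, which encodes the microtubule protein doublecortin of migrating neuroblasts, was at 286 in the control and 152 in the shPaupar group (log2 level ratio -0.91, adjusted p 0.000777 in the authors' deposited table). Among astroglial genes outside the marker list, picked after their values were seen, the log2 level ratios in the authors' deposited table were -0.35 for the glutamate transporter gene Slc1a2, -0.39 for the GABA transporter gene Slc6a11, -0.43 for the aldolase gene Aldoc and -0.45 for Aqp4. The median over the 132 features above 0 in both groups was -0.45, so values of this size are not particular to astroglial genes. Kcnip3 was at -0.41 and Kcnip1 at -0.59. The part of cell composition in the KChIP values was not tested.

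**Figure D1:**
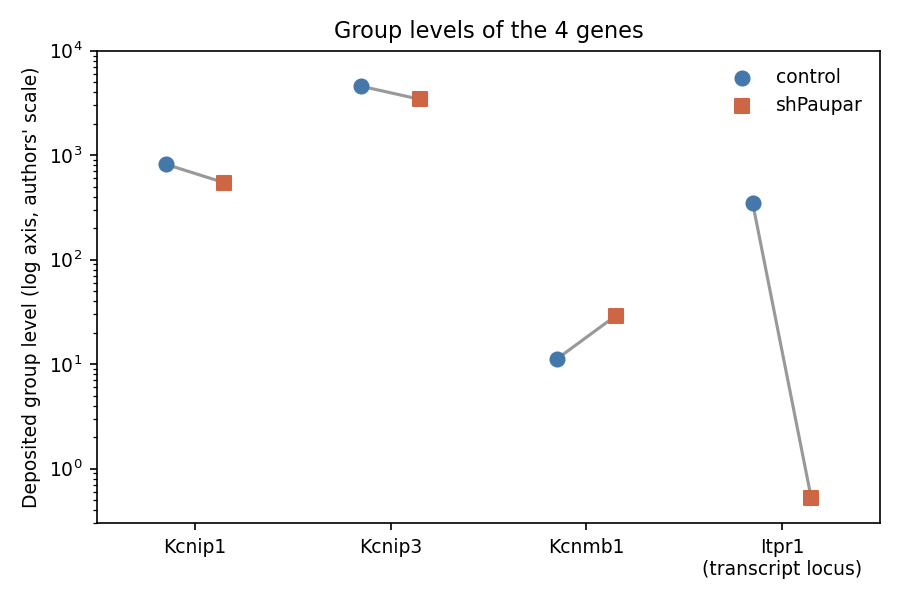
Deposited group level (log axis, the authors' scale) of each gene in control (circles) and shPaupar cells (squares), 1 value per group and no error available. Kcnip1 and Kcnip3 were modestly lower in shPaupar cells, Kcnmb1 was higher at 29.0 against 11.2, and the Itpr1 row dropped from 351 to 0.520.

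Kcnmb1 was the one gene that was higher. It encodes the BK beta1 subunit, known chiefly from smooth muscle, where it raises the calcium sensitivity of the channel. Its row in the authors' deposited table (ENSMUSG00000020155, chromosome 11, 33963013 to 33973641) equals the gene and its single annotated transcript. In the authors' deposited table its level was 11.2 in the control group and 29.0 in the shPaupar group, 2.58-fold higher (log2 level ratio 1.37). The adjusted p in the authors' deposited table was 0.0390, rank 137 of 155, and at an adjusted p under 0.01, which 60.6% of the features pass, Kcnmb1 was the member that did not. Its Wald standard error was 0.363, with a 95% interval from 0.65 to 2.08. Both of its levels were under 100, as for 41 features in the authors' deposited table, of which 39 had an absolute deposited log2 fold change of at least 1, so at such levels nearly all listed features showed large fold changes. The smooth muscle and pericyte markers Acta2 and Pdgfrb had no row, and their part in the Kcnmb1 value was not tested.

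Kcnmb1 lies inside the span of Kcnip1 on the opposite strand, and the pair went in opposite directions. The GENCODE M21 annotation (GRCm38), whose gene spans equal the deposited loci of Kcnip1, Kcnip3 and Kcnmb1, places all 10629 bases of Kcnmb1 within Kcnip1. The shared exonic sequence was 0 bases. The 3 protein-coding Kcnip1 transcripts (Kcnip1-201, Kcnip1-202 and Kcnip1-203) do not reach Kcnmb1: the nearest, Kcnip1-203, starts 119 kb from the Kcnmb1 start. Only the non-coding transcripts Kcnip1-204 and Kcnip1-205 cross Kcnmb1, and both do so with a 347 kb intron. Libraries were made after removal of ribosomal RNA, which keeps unspliced RNA, and the use of strand in counting is not given in the sources used here. Reads from that intron and reads from Kcnmb1 therefore cannot be told apart by position, and their part in the Kcnmb1 level was not tested.

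**Figure D2:**
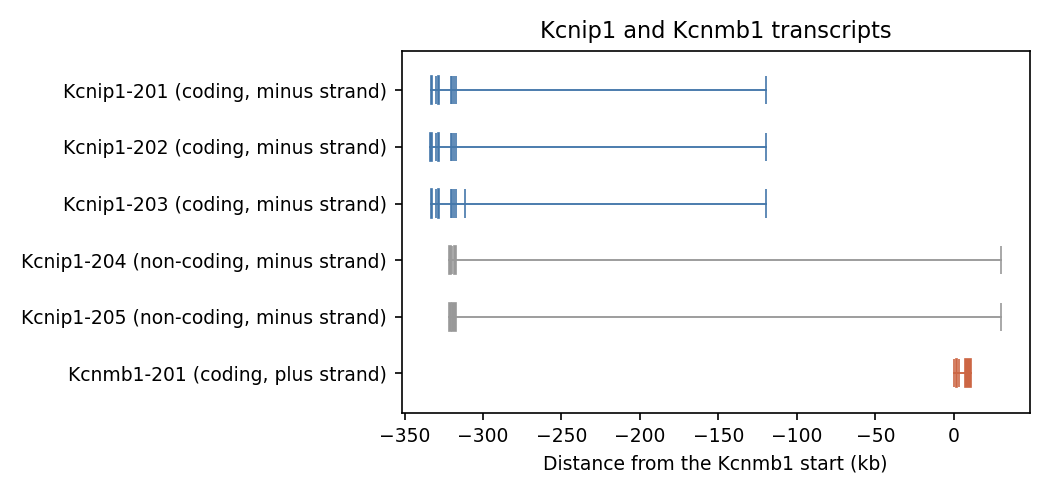
Annotated transcripts of Kcnip1 (minus strand; blue for protein-coding, grey for non-coding) and Kcnmb1 (plus strand, orange) against distance from the Kcnmb1 start in kb, with exons as boxes and introns as lines. The protein-coding Kcnip1 transcripts start 119 kb or more from Kcnmb1, which lies in the 347 kb intron of the non-coding ones.

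Itpr1 had the largest drop of the 4, but its row is not the whole gene. Itpr1 encodes the type 1 inositol trisphosphate receptor, the main form in brain and most abundant in cerebellar Purkinje cells. Its row in the authors' deposited table (ENSMUSG00000030102, chromosome 6, 108252958 to 108393000) equals Itpr1-209, 1 of 5 retained-intron transcripts among the 13 annotated for the gene, and covers 41.4% of the gene span. In the authors' deposited table the level was 351 in the control group and 0.520 in the shPaupar group. The ratio of these levels is -9.40 on the log2 scale, whereas the deposited log2 fold change is -9.08, with an adjusted p of 0.000140 in the authors' deposited table. The gap of 0.31 between these values is uncommon in the table: such a gap exceeds 0.3 in 2 of the 132 features above 0 in both groups, against a median gap of 0.000177. With a Wald standard error of 1.70, the largest of the 132, the 95% interval of the deposited value ran from -12.42 to -5.75.

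The shPaupar level of Itpr1 sat at the bottom of the range. It was the second lowest level above 0 in shPaupar cells, after the 0.514 of Gkap1, and to 6 decimals it equals the level listed for 4930506C21Rik. The table holds no read counts, so how many reads stand behind 0.520 is not known, and it may be very few. Such a level near 0 carries a fold change that moves with any constant added to it: with a pseudocount of 1 on both levels the log2 ratio was -7.85.

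Itpr1-209 shares most of its sequence with the messenger RNA of the receptor. It has 23 exons and 3509 bases, of which 2968 also lie in exons of protein-coding Itpr1 transcripts and 537 (15.3%) lie in no other Itpr1 exon. It spans 22 of the 62 exons of the full-length transcript Itpr1-201. The 537 bases are a first exon of 126 bases, used by no other annotated Itpr1 transcript, and 411 bases at the 3' end, where the transcript runs on into an intron and stops. The first 180 bases of its last exon (GRCm38, chr6:108392531-108392710, plus strand, from the GENCODE M21 transcript) are shown because they hold the point where it leaves the coding exon, with the first 125 bases of intron after it. Lower case marks the 55 bases that protein-coding transcripts keep as an exon, and capitals mark intron of those transcripts.
Itpr1-209 last exon: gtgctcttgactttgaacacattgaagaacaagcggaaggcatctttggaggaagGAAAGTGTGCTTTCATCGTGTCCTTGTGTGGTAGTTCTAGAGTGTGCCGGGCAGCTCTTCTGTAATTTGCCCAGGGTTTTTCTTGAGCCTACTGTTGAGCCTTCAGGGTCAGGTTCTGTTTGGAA
Reads over the lower-case part fit both the receptor messenger RNA and Itpr1-209, and how the authors divided them is not given in the sources used here. No row for the Itpr1 gene as a whole was among those used here, so the values hold for Itpr1-209 alone and give no level for the receptor messenger RNA. Annotated genes Gm44101 and Gm44040 lie on the opposite strand of Itpr1 and share 181 and 108 exonic bases with it.

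**Figure D3:**
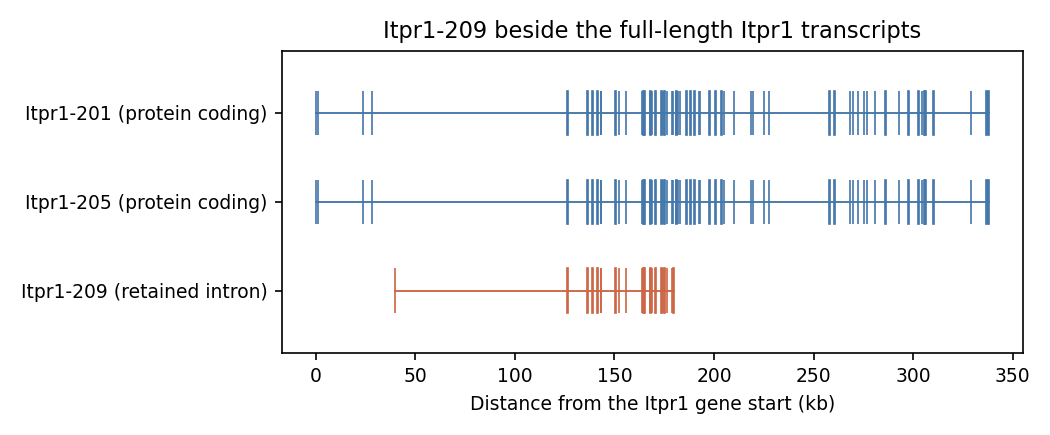
Exons (boxes) and introns (lines) of the full-length Itpr1 transcripts Itpr1-201 and Itpr1-205 (blue) and of Itpr1-209 (orange) against distance from the Itpr1 gene start in kb. Itpr1-209 starts 39.9 kb into the gene at an exon of its own, covers 22 of the 62 exons of Itpr1-201 and ends in an intron.

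In the authors' deposited table, 20 rows have a locus equal to a retained-intron transcript of the named gene. Of these, 8 are listed as lower and 12 as higher in the shPaupar group, against 65.2% lower and 34.8% higher over all features. The locus of Relb, among the 8 lower rows, also equals a whole gene span. Within these 20, the Itpr1 row had the largest absolute deposited log2 fold change, 1 row had a smaller adjusted p (Pan2, at 3.72e-09 in the authors' deposited table) and 1 a higher control level (Tecpr1, at 1083 in the authors' deposited table).

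**Figure D4:**
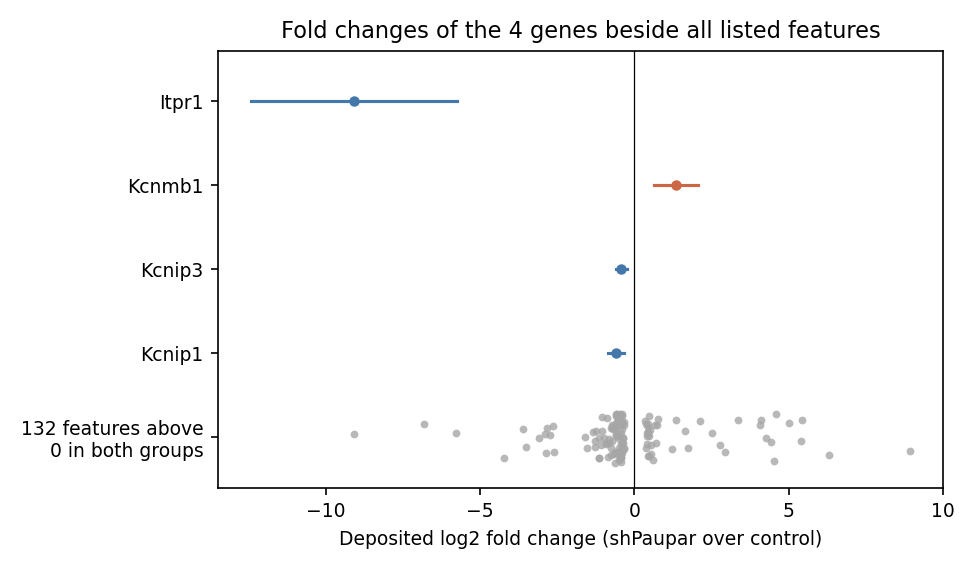
Deposited log2 fold change (shPaupar over control) of each of the 4 genes (points, blue for lower and orange for higher) with its 95% interval under the assumption of a Wald test, above the 132 features listed above 0 in both groups (grey, spread vertically for legibility, the 4 genes included). Kcnip1 (-0.59) and Kcnip3 (-0.41) sit in the dense cluster of modest decreases, Kcnmb1 (1.36) and Itpr1 (-9.08) outside it.

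No member of 5 pathway lists, which were chosen with earlier results known and are not complete, was a row of the authors' deposited table. The lists leave out the 4 genes themselves, 2 of which are KChIP genes of the neuronal calcium sensor family. The table holds only called features, so the share of all genes that became rows is not known and cannot be set beside these counts. The lists covering the partners of the 4 genes had 0 of 26 members present for Kv4 and BK channel complexes and related potassium channel subunits, such as the Kv4 genes Kcnd2 and Kcnd3, the BK pore gene Kcnma1 and the other KChIP genes Kcnip2 and Kcnip4. The count was 0 of 32 for calcium release, refill and the inositol trisphosphate pathway, which includes the other receptor genes Itpr2 and Itpr3, the ryanodine receptors and the calcium pumps. It was 0 of 11 for neuronal calcium sensors and calmodulins, 0 of 9 for reported partners and targets of Kcnip3, such as the prodynorphin gene Pdyn, and 0 of 45 for pore-forming subunits of potassium, HCN, voltage-gated calcium and voltage-gated sodium channels. The last list holds no glutamate receptor channels, of which the AMPA receptor gene Gria1 (2551 in the control and 1759 in the shPaupar group) and a transcript of the kainate receptor gene Grik1 (29.0 in the control group, listed at 0 in the shPaupar group) are rows of the authors' deposited table. GABA receptor channel genes on none of the lists are rows too: Gabra4 (2088 in the control and 1587 in the shPaupar group) and Gabrb1 (911 and 559). The calcium-handling genes Cabp7 and Slc8a2, also on none of the lists, are rows as well. Fold changes of genes that are not rows were not analysed here, so these counts do not show that the channels themselves were unchanged.

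Features with a similar pair of group levels were found for the KChIP genes but not for the others. Likeness was the distance between features on the plane of log2 shPaupar level and log2 control level, over 2 group levels. It was taken over 125 other features above 0 in both groups, and it compares table values and not abundance per length. Kcnip1 was nearest to the mitochondrial malic enzyme gene Me3 (distance 0.04, log2 level ratio -0.58 in the authors' deposited table), then to the chemokine gene Cxcl14 (0.10) and Pyroxd2 (0.13). Kcnip3 was nearest to the nuclear receptor gene Rora (0.13; its log2 level ratio in the authors' deposited table was -0.35), then to Aqp4, a water channel gene (0.17), and the protease gene Htra1 (0.17). Kcnmb1 had no near neighbour: the closest was the testis kinase gene Tssk4 at a distance of 1.61, which the authors' deposited table gives at 26.0 in the control and 60.5 in the shPaupar group, followed by Lsp1 (2.07) and Adra2c (2.10), which went the other way. Itpr1 was likewise far from its nearest features, Gkap1 (2.27), Cog7 (2.52) and Prpf40b (4.08), which the authors' deposited table all lists as lower in the shPaupar group. The loci of the Cog7 and Prpf40b rows, like that of Itpr1, equal retained-intron transcripts and not the whole gene.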

How the data were processed

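Total RNA was treated with DNase and depleted of ribosomal RNA with probes, and libraries were primed with random hexamers and sequenced as paired reads, per the labels' protocols. CASAVA, HISAT2, HISAT, TopHat2 and StringTie are named without roles or versions, per the submitters' processing notes; the counter, use of strand, test and build behind the table are not stated there. The authors deposited 1 signal level per group, with unstated normalization. They also deposited log2 fold changes, and p-values raw and adjusted. Of 156 rows, 1 was shifted by 1 column and read accordingly, and 1 repeat was dropped. Levels under 1e-10 were taken as listed at 0. The members and lists were chosen with earlier results of these data known.

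The log2 level ratio is log2(shPaupar/control) with no pseudocount. Standard errors were derived from each deposited log2 fold change and its p-value as if from a Wald test, with the arithmetic tested on simulated data. A test between samples needs values per sample and was not made. Named genes were the 4 members, any row on a pathway list and the 3 nearest features of each member, beside the marker Dcx. These leave out unnamed loci, Gm or Rik genes and pseudogenes. Named after their values were seen were 4930506C21Rik, Pan2, Tecpr1, Relb, Cabp7, Slc8a2, Gria1, Grik1, Gabra4, Gabrb1, Slc1a2, Slc6a11, Aldoc, Acbd5, Ccdc28b and 6330403L08Rik. Loci were compared with GENCODE M21 (GRCm38), since 3 of 4 deposited loci equal its gene spans. Python 3.11.15, pandas 2.3.3, NumPy 2.4.6, SciPy 1.17.1 and matplotlib 3.10.9 were used. The alternatives tried are given with their effect in the closing section.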

Additional observations from a re-analysis of the deposited data

How the results depend on the processing

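The log2 level ratios of Kcnip1, Kcnip3, Kcnmb1 and Itpr1 kept their direction and their side of an absolute log2 ratio of 1 with pseudocounts of 0.1 and 1 and with the deposited log2 fold change. Kcnmb1 ranged from 1.30 to 1.37 and Itpr1 from -9.40 to -7.85. At an adjusted p under 0.01 in place of 0.05, 3 of the 4 members passed, beside 60.6% of all features. Itpr1, whose row is a transcript, was 1 of the 2 members with an absolute log2 ratio of at least 1, so without it the count was 1. With a 1.5-fold threshold the count was 3, and Kcnip1 passed only narrowly, at 1.50-fold. The share of all features past 1.5-fold was not counted, so nothing is read from that 3. Over the table, 68 features had an absolute log2 value of at least 1 by level ratios and 68 by deposited fold changes. This comparison was added after the data were seen. No paired analysis was possible because the table gives 1 value per group, and no replicate could be left out for the same reason. The lack of values per sample limits every statement, and levels near 0 limit the size given for Itpr1.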

Other observations

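Beside the 4 genes, the rows of Cabp7 and Slc8a2 also concern calcium handling. Both were lower in shPaupar cells, as were 65.2% of all features. They were chosen after their values were seen, without a search for every calcium gene, and belong to none of the lists. Cabp7, which encodes an EF-hand calcium-binding protein related to calmodulin, had a level of 17.7 in the control and 2.37 in the shPaupar group of the authors' deposited table, a log2 level ratio of -2.90 with an adjusted p of 0.000747. Slc8a2, which encodes a sodium-calcium exchanger of the plasma membrane, had a level of 3190 in the control and 2455 in the shPaupar group of the authors' deposited table, a log2 level ratio of -0.38 with an adjusted p of 0.0378.

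Identical low levels also occurred in control cells. The level of 0.962 listed for Acbd5 in control cells equals those of Ccdc28b and 6330403L08Rik to 6 decimals in the authors' deposited table.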
